A study of Mus musculus with 2 samples.

Results

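Lymphoid homing chemokines and their receptors were followed through single cells of subcutaneous mouse tumours. The group was chosen by gene symbol and holds 7 genes: the ligand genes Cxcl12, Cxcl13 and Ccl21a and the receptor genes Cxcr4, Ackr3, Cxcr5 and Ccr7. They occupy 8 of the 32285 matrix rows, because Ccl21a has 2 rows, and the other one (ENSMUSG00000095320, on an unplaced contig) had 0 UMIs in both libraries. UMIs are tags that each mark 1 captured RNA molecule. The tumours came from mice on a control diet (1 library, 13588 cells) or on a diet lacking serine and glycine (1 library, 19106 cells); the sources used here do not give the number of mice, their strain and age, or the tumour line. Each diet has a single library, so every ratio compares 2 libraries without a check against replicates. No p-value was computed, and intervals are 95% and cover counting error only. The control library was deeper per cell, with a median of 11310.5 against 7305 UMIs, and 87 cell barcodes occurred in both libraries.

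Chemokines of this kind guide lymphocytes into and within lymphoid tissue. CXCL12 is made by stromal cells and acts through CXCR4, while ACKR3 (also called CXCR7) binds the same ligand and removes it without classical G-protein signalling. CXCL13 draws CXCR5-bearing B cells and follicular helper T cells into follicles, and CCL21 on lymphatic and high endothelial vessels draws CCR7-bearing naive T cells and mature dendritic cells.

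The member genes lie on 6 chromosomes of the GRCm38 (mm10) assembly: Cxcl12 (ENSMUSG00000061353) at chr6:117168535-117181367, Cxcl13 (ENSMUSG00000023078) at chr5:95956951-95961068, Ccl21a (ENSMUSG00000094686) at chr4:42772860-42773993, Cxcr4 (ENSMUSG00000045382) at chr1:128588199-128592293, Ackr3 (ENSMUSG00000044337) at chr1:90203980-90216751, Cxcr5 (ENSMUSG00000047880) at chr9:44511787-44561877 and Ccr7 (ENSMUSG00000037944) at chr11:99144196-99155077. All are protein coding. The 250 bases before the RefSeq start sites of the 3 ligand genes (GRCm38.p6, each written 5′ to 3′ on the gene's own strand) are shown because these genes had the highest library ratios below. The windows are chr6:117168285-117168534 (plus strand), chr5:95956689-95956938 (plus strand) and chr4:42773992-42774241 (minus strand). Capitals mark matches to the TATA-box letters TATAAA, searched on both strands.
Cxcl12: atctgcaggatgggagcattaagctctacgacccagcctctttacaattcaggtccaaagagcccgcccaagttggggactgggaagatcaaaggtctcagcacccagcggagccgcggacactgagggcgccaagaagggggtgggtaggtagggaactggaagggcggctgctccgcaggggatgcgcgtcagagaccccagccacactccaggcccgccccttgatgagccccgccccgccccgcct
Cxcl13: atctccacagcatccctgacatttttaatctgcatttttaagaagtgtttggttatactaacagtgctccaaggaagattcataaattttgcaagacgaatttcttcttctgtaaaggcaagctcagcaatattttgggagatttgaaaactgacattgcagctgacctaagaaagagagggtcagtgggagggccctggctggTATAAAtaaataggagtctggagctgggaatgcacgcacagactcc
Ccl21a: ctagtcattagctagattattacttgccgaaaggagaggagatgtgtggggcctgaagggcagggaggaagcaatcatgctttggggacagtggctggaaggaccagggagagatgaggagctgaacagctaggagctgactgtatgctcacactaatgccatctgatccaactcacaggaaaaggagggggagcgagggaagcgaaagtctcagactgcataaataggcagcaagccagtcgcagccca
In the Cxcl13 window TATAAA lay 46 to 41 bases before the start, and it was present in 4063 of 32851 promoter windows of this length (12.4%). It was in neither the Cxcl12 nor the Ccl21a window; a match, or its absence, describes these letters only.

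Ccl21a has near-identical copies, so its counts carry an added uncertainty. In the GENCODE transcripts, the 402 coding bases of Ccl21b, Gm10591, Gm13304 and Gm21541 differed from those of Ccl21a at the same 2 positions, T84A and C194T, counted from 1 at the first coding base with the Ccl21a base first. The 30 bases around each position (coding bases 69 to 98 and 179 to 208) are shown for Ccl21a and for Ccl21b, with the differing base in capitals.
Ccl21a, bases 69 to 98: cagtgatggagggggTcaggactgctgcct
Ccl21b, bases 69 to 98: cagtgatggagggggAcaggactgctgcct
Ccl21a, bases 179 to 208: cggcaatcctgttctCaccccggaagcact
Ccl21b, bases 179 to 208: cggcaatcctgttctTaccccggaagcact
The deposited matrices gave Ccl21a 225 UMIs, all in the serine/glycine-free library, and gave each of the 4 copies 0 UMIs in both libraries. The sources used here do not say how reads shared between the copies were assigned.

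Cells were gated on how many genes of a marker panel they carried, and names below mean "-like" classes defined in this way. With the control library given first, the gates held 80 and 97 fibroblast-like cells and 31 and 43 endothelial-like cells. Among leukocytes they held 1080 and 1324 monocyte/macrophage-like cells, 477 and 1361 T-like cells, and 15 and 315 B-like cells. Cells with at least 2 of the genes Hmga2, Rhox5 and Krt20 were taken as tumour cells (10434 and 12959 cells); this short panel came from earlier work on the same data. The gated fibroblast-like cells carried a median of 8 of 10 fibroblast genes in both libraries, the endothelial-like cells 10 and 9 of 11, and both had a median of 0 pan-leukocyte genes. Cells sitting exactly at their gate's limit were few among fibroblast-like cells (8 and 9) and B-like cells (0 and 32), and many among tumour cells (3760 and 4729).

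Over all cells, 6 of the 7 genes had a higher level in the serine/glycine-free library and Ackr3 had a lower one. The ratio was 2-fold or more for 4 of them: Cxcl12, Cxcl13, Cxcr5 and Ccl21a. Among the 18077 genes with at least 20 UMIs over both libraries, 3.37% were higher by 2-fold or more and 2.28% lower by as much. Cxcl12 had 521 and 1499 UMIs, which is 3.22 and 9.57 CPM (the gene's UMIs per 1000000 UMIs of the cells summed) and a 2.97-fold ratio (2.69 to 3.29). Cxcl13 had 36 and 447 UMIs, a 12.8-fold ratio (9.11 to 18.5). Both ligand genes were thus well apart between the libraries relative to counting error. Cxcr5 had 63 and 145 UMIs (2.38-fold), Ccr7 had 181 and 295 (1.68-fold), and Cxcr4 had 394 and 558 (1.46-fold). Ackr3 had 9484 and 7257 UMIs, a ratio of 0.790 (0.766 to 0.814). Such totals mix the level per cell with the number of cells of each class, and the classes are taken apart below.

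**Figure D1:**
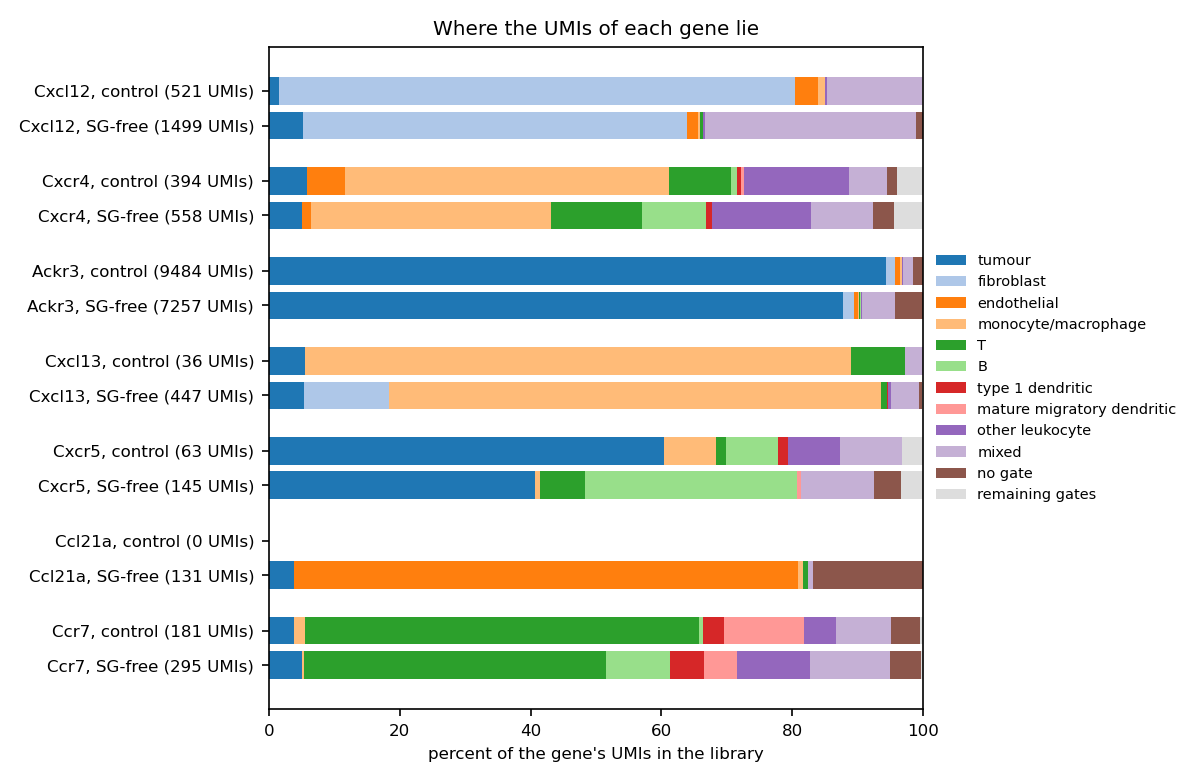
Stacked bars show the percent of each gene's UMIs (x axis) that lay in each marker-gated class, with a bar per gene and library and the UMI total in its label; SG-free is the serine/glycine-free diet. Fibroblast-like cells held most Cxcl12 UMIs, monocyte/macrophage-like cells most Cxcl13 UMIs, and tumour cells most Ackr3 UMIs, while Ccl21a had 0 UMIs in the control library.

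Cxcl12, the retention signal for CXCR4-bearing cells, had its highest level in fibroblast-like cells in both libraries. There it had 411 UMIs over 80 control cells (591 CPM, 535 to 651) and 878 UMIs over 97 cells of the serine/glycine-free library (1461 CPM, 1366 to 1561). The intervals did not overlap, and the log2 ratio was 1.31 (1.14 to 1.48). Among the 7453 genes measured in this class, 4.63% were higher by 2-fold or more. The difference was spread over many cells: 60 of 80 and 85 of 97 fibroblast-like cells had a Cxcl12 UMI, and 13 and 34 cells had 10 or more. The cell with most Cxcl12 held 30 UMIs (7.30% of the class's UMIs) and 44 UMIs (5.01%), and the ratio without the top 5 cells of each library was 1.45. With every cell reduced to 500 UMIs, the expected share of fibroblast-like cells with Cxcl12 was 21.7% and 44.7%, so the share also differed at equal depth. Stricter gates asked for 1 more fibroblast gene and for no UMI of the tumour, monocyte/macrophage, T, B or endothelial panel. Fibroblast-like cells carried a median of 1 of the 10 B-panel genes in both libraries, and of 1 and 0 tumour genes. Only 2 and 6 cells were left, with 8 and 34 UMIs and a log2 ratio of 1.02 (-0.12 to 2.34).

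Cells in both the fibroblast and the tumour gate (20 and 38 cells) were set aside as mixed, and they too carried Cxcl12, with 72 UMIs (231 CPM) and 421 UMIs (813 CPM). The ratio in these double-gated cells was 3.52-fold (2.74 to 4.59), where 7.31% of genes were higher by 2-fold or more. It was 2.40-fold (2.16 to 2.68), or 1.27 on the log2 scale, when the fibroblast gate was applied without regard to tumour markers, where 5.45% of genes were. Endothelial-like cells were the next source per cell, with 18 UMIs (73.9 CPM) and 25 UMIs (131 CPM). Their log2 ratio of 0.82 had an interval (-0.11 to 1.78) that includes no difference. Without the top 5 cells of each library, 5 and 13 UMIs were left and the interval did not include it (1.75, 0.17 to 3.59). Those cells held 72.2% of the control UMIs and 48% of the others, so leaving them out itself raised the ratio. Monocyte/macrophage-like cells had 6 Cxcl12 UMIs in each library (1.10 and 1.26 CPM). Tumour cells had 8 and 79 Cxcl12 UMIs in 8 and 76 cells (0.0546 and 0.593 CPM), with a log2 ratio of 3.44 (2.39 to 4.70) in a class where 2.82% of genes were higher by 2-fold or more. Without the top 5 cells of each library it was 4.70 (3.10 to 7.01), with 3 and 71 UMIs left. This rise too came with the unequal shares left out, 62.5% of the control UMIs and 10.1% of the others. Of the 76 cells, 74 had a single UMI. For comparison, Glycam1, of which 1784 of 1839 UMIs lay in 1 barcode of the serine/glycine-free library, had 43 UMIs in its tumour cells (0.323 CPM) and 0 in those of the control library. The part of such carried-over RNA in the tumour-cell value was not tested.

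Cxcl13, the follicular chemokine, came mainly from a small set of macrophage-like cells. In the monocyte/macrophage gate it had 30 UMIs in 6 of 1080 control cells (5.49 CPM, 3.71 to 7.84) and 336 UMIs in 38 of 1324 cells of the serine/glycine-free library (70.6 CPM, 63.3 to 78.6). The log2 ratio was 3.68 (3.14 to 4.27), against 1.82% of 11106 genes higher by 2-fold or more in this class. All of these UMIs lay in cells with UMIs of 2 or 3 of the complement genes C1qa, C1qb and C1qc (949 and 1203 cells). The control value rested on 1 cell with 22 of the 30 UMIs (73.3%). In the serine/glycine-free library the top cell held 52 UMIs (15.5%) and the top 5 cells 57.7%. Leaving out the top cell of each library gave a log2 ratio of 5.35, and leaving out 5 gave 7.35 (4.85 to 12.7), a range set by how few UMIs remained in the control library. Under stricter gates, 29 and 113 UMIs remained and the log2 ratio was 2.19 (1.59 to 2.83). The share of cells with Cxcl13 was 0.556% (0.204 to 1.21) and 2.87% (2.04 to 3.92), and 0.156% and 1.49% at 500 UMIs per cell.

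The 30 macrophage-like cells of the serine/glycine-free library with 2 or more Cxcl13 UMIs had a median depth of 3150.5 UMIs, near the 3354 of the other 1294 cells. Relative to those others, their level of Ccl8, a monocyte-attracting chemokine, was higher by 2.15 on the log2 scale (2.05 to 2.24). The class II antigen-presentation genes H2-Aa (0.88, 0.77 to 0.98) and H2-Ab1 (0.87, 0.74 to 0.99) were also higher, as were Adgre1, which encodes F4/80 (1.04, 0.66 to 1.40), Apoe (0.64, 0.58 to 0.70) and Cxcl9, an interferon-induced chemokine gene (0.83, 0.63 to 1.03). Il1b, an inflammatory cytokine gene, was lower, at -1.77 (-2.77 to -0.92). Only 3 control cells had 2 or more Cxcl13 UMIs. In them H2-Aa (1.34, 0.91 to 1.73), H2-Ab1 (1.52), Cxcl9 (2.36, 1.86 to 2.83) and Apoe (0.50, 0.31 to 0.68) were higher too. The control intervals of Ccl8 (0.29, -0.36 to 0.88), Adgre1 (0.36, -1.51 to 1.72) and Il1b (-0.28, -2.16 to 1.08) include no difference. These genes were chosen after earlier looks at the data, and the cells compared within a library share that library.

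Outside the macrophage-like cells, Cxcl13 was seen in few cells or at 1 UMI per cell. Fibroblast-like cells had 0 control UMIs and 58 in the other library, of which 56 lay in 1 cell. At the 3-count limit (3 UMIs over the class) this is at least 22.4-fold higher, but for 1 cell. T-like cells, in which follicular helper and exhausted cells can make CXCL13 in humans, had 3 UMIs in 1 control cell and 4 UMIs in 4 cells of the serine/glycine-free library. Tumour cells had 2 UMIs in 1 cell and 24 UMIs in 24 cells (0.0137 and 0.180 CPM), the level of a single UMI per cell.

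Ccl21a was seen in the serine/glycine-free library alone, and nearly all of it in 3 barcodes. Among the cells used it had 0 and 131 UMIs, at least 45.1-fold by the 3-count limit (3 UMIs over the library), and 101 of the 131 lay in 1 cell (77.1%). That cell (9517 UMIs) fell in the endothelial gate, with Pecam1 (3 UMIs) and Cdh5 (4). It carried the lymphatic endothelial genes Mmrn1 (22 UMIs), Lyve1 (8), Prox1 (6), Reln (3) and Flt4 (2), while Pdpn, another such gene, was at 0. It was the single endothelial-like cell with 3 or more lymphatic genes in either library; the 31 control endothelial-like cells held none. A second barcode (8522 UMIs), called a doublet and so not used in the ratios, held 91 Ccl21a UMIs with Glycam1 (1784 UMIs), Chst4 (4), Pecam1 (13) and Cdh5 (7). Glycam1 and Chst4 are markers of high endothelial venules, the vessels through which naive lymphocytes enter lymph nodes, and Madcam1 was at 0 in it. Another, ungated cell (1747 UMIs) held 21 Ccl21a UMIs with the stromal genes Dcn (17 UMIs), C3 (15), Cxcl12 (7) and Col3a1 (5), and 1 UMI of Ccl19. The 11 further barcodes with Ccl21a had 1 UMI each. Without the top cell 30 UMIs were left, and without the top 5 cells 6.

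**Figure D2:**
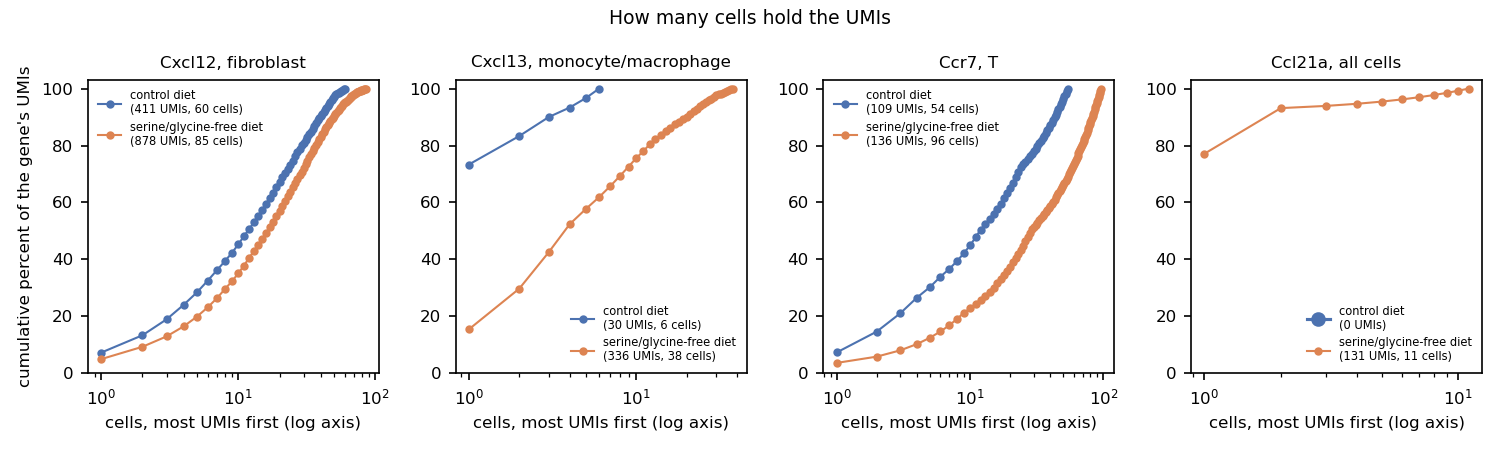
Curves show the cumulative percent of a gene's UMIs in a class (y axis) against cells ordered from most to fewest UMIs (x axis, log scale), for each library. The Cxcl12 and Ccr7 curves climb gradually over many cells, whereas the top macrophage-like cell of the control library holds 73.3% of its Cxcl13, and a single cell holds 77.1% of the Ccl21a of the serine/glycine-free library.

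Cxcr4, the receptor of CXCL12, had most of its UMIs in leukocytes, and its level in T-like cells was close in both libraries. Monocyte/macrophage-like cells held 195 UMIs in 150 cells (35.7 CPM) and 205 UMIs in 167 cells (43.1 CPM), a log2 ratio of 0.27 (-0.02 to 0.56). T-like cells had 37 UMIs (28.4 CPM) and 77 UMIs (28.7 CPM), a log2 ratio of 0.02 (-0.57 to 0.62). B-like cells had 4 UMIs in 3 cells (162 CPM, 44.1 to 414) and 55 UMIs in 50 cells (168 CPM, 127 to 219). In each of these classes the intervals of the ratio include no difference, although those of B-like cells (log2 -1.38 to 1.98) also include a large one. Leukocytes that met no gate had 63 and 84 UMIs (42.85 and 62.28 CPM), a log2 ratio of 0.54 whose interval (0.05 to 1.03) does not include it. The B-like log2 ratio of 0.06 rested on 4 control UMIs and was 0.97 (-0.96 to 4.05) without the top cell of each library. In endothelial-like cells, where CXCR4 marks sprouting tip cells, 23 UMIs in 11 of 31 cells (94.5 CPM) stood against 8 UMIs in 6 of 43 cells (41.9 CPM), a log2 ratio of -1.17 (-2.54 to 0.04). Among the 4053 genes measured there, 4.49% were lower by 2-fold or more, and 8 of the 23 control UMIs lay in 1 cell. The ratio was -2.57 (-8.09 to 0.47) without the top 5 cells of each library, with 6 and 1 UMIs left, and -1.24 (-2.61 to -0.02) with doublets kept. Fibroblast-like cells had 0 Cxcr4 UMIs in both libraries (limits of 4.31 and 4.99 CPM), and tumour cells had 23 and 28 (0.157 and 0.210 CPM), each in a cell of its own.

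Ackr3, the scavenging receptor for CXCL12, had most of its UMIs in tumour cells, as had all genes together, and its highest level in endothelial-like cells. Over all cells its level was 58.7 and 46.3 CPM. Tumour cells held 146472257 of the 161608837 UMIs of all genes in the control library, and 133241888 of 156639681 in the other. Of the Ackr3 UMIs they held 94.4% and 87.7%. Their level was 8948 UMIs in 4758 of 10434 cells (61.1 CPM, 59.8 to 62.4) and 6364 UMIs in 4100 of 12959 cells (47.8 CPM, 46.6 to 48.9), a log2 ratio of -0.36 (-0.40 to -0.31). The share of tumour cells with a UMI was 45.6% and 31.6%, and 3.05% and 2.45% at 500 UMIs per cell. No cell held more than 0.257% of these UMIs. Endothelial-like cells had 64 UMIs (263 CPM, 202 to 336) and 47 UMIs (246 CPM, 181 to 327), and fibroblast-like cells 133 UMIs (191 CPM, 160 to 227) and 121 UMIs (201 CPM, 167 to 241). Their log2 ratios were -0.10 (-0.67 to 0.47) and 0.08 (-0.29 to 0.44), so a ratio of the tumour-cell size lies inside the endothelial interval and outside the fibroblast one. Of the fibroblast-like cells, 23 of 80 and 45 of 97 had UMIs of both Cxcl12 and Ackr3, 37 and 40 of Cxcl12 alone, 12 and 10 of Ackr3 alone, and 8 and 2 of neither. In T-like cells Ackr3 had 5 and 10 UMIs, and in monocyte/macrophage-like cells 25 and 17.

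**Figure D3:**
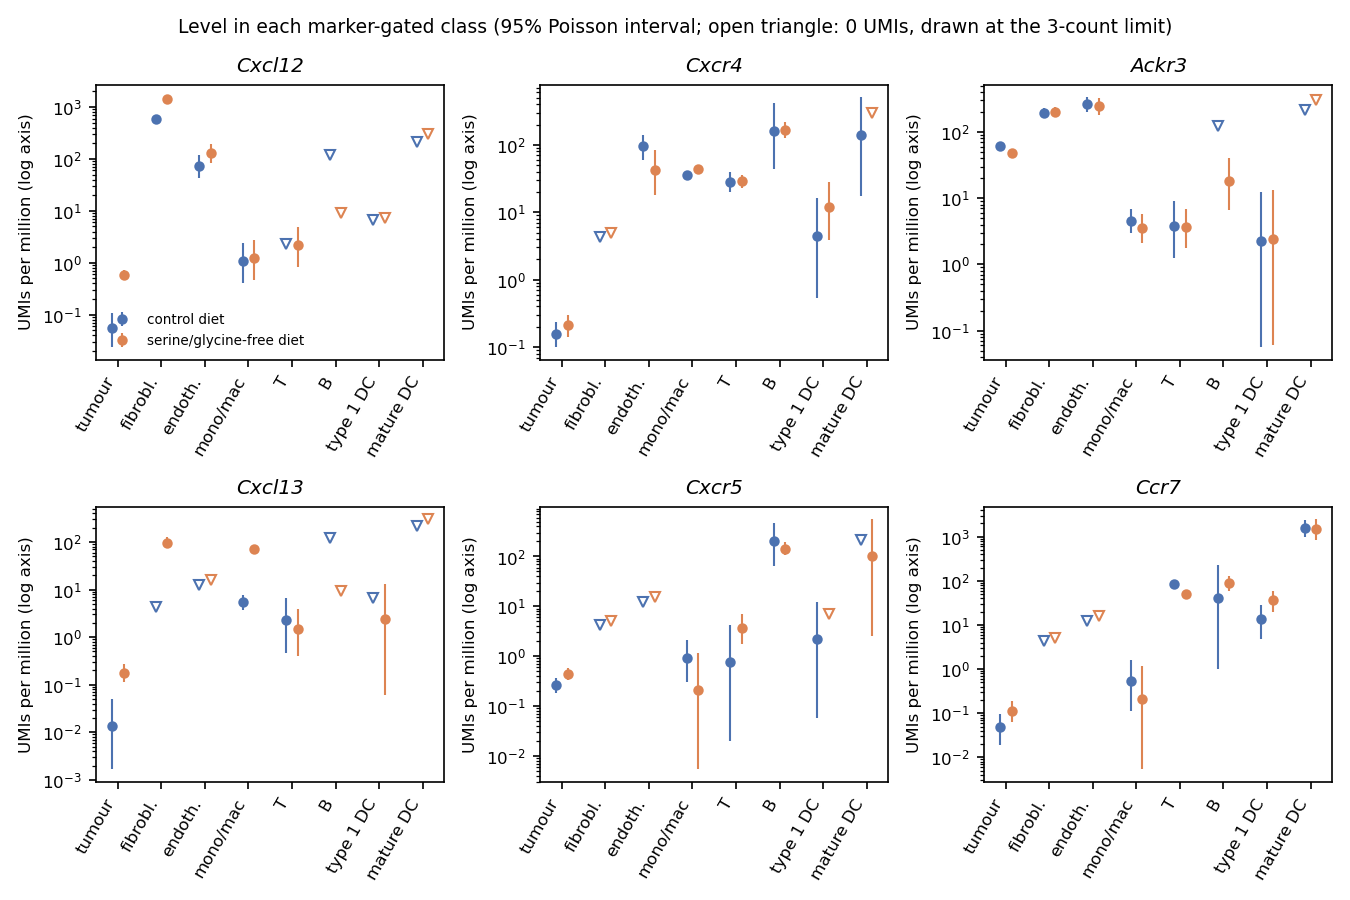
Points give the CPM of 6 of the genes (y axis, log scale; Ccl21a is not drawn) in 8 marker-gated classes (x axis) for the control diet (blue) and the serine/glycine-free diet (orange), with 95% Poisson intervals; open triangles are classes with 0 UMIs drawn at the 3-count limit. Cxcl12 in fibroblast-like cells (591 and 1461) and Cxcl13 in monocyte/macrophage-like cells (5.49 and 70.6) stand apart between the libraries, while Cxcr4 in T-like cells (28.4 and 28.7) does not.

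Cxcr5, the receptor of CXCL13, had its highest level in B-like cells, where the interval of the level ratio includes no difference and also a large one. It had 5 UMIs in 5 of 15 cells (202 CPM, 65.7 to 472) and 47 UMIs in 40 of 315 cells (144 CPM, 106 to 191), a log2 ratio of -0.49 (-1.82 to 1.20). B-like cells held 7.94% of the control library's Cxcr5 UMIs and 32.4% of those of the serine/glycine-free library, where such cells were 1.65% of cells against 0.110%. The share of B-like cells with a UMI, 33.3% (11.8 to 61.6) and 12.7% (9.23 to 16.9), became 12.4% and 6.98% at 500 UMIs per cell. The ratio of these shares was 0.38, with an approximate interval (0.18 to 0.82) that does not include no difference. It was 0.56 at 500 UMIs per cell. Median depths were 1434 and 787 UMIs. T-like cells had 1 and 10 Cxcr5 UMIs (0.767 and 3.73 CPM), and 4 of the 10 lay in 3 of 69 cells with a Cd4 UMI and no Foxp3 UMI. Tumour cells carried a low level, with 38 and 59 UMIs in 31 and 47 cells (0.259 and 0.443 CPM). This made up 60.3% and 40.7% of each library's Cxcr5. The log2 ratio in tumour cells was 0.77 (0.16 to 1.40), an interval that does not include no difference. Of the 31 and 47 cells, 25 and 37 had a single Cxcr5 UMI and the others had more. The share of tumour cells with a Cxcr5 UMI was 0.297% and 0.363%, at median depths of 12963.5 and 9200 UMIs. It is set beside the B-like shares for comparison, and the source of these UMIs was not tested.

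Ccr7, which carries T cells and dendritic cells toward CCL21, was lower in T-like cells of the serine/glycine-free library. It had 109 UMIs in 54 of 477 T-like cells (83.6 CPM) and 136 UMIs in 96 of 1361 cells (50.7 CPM). The log2 ratio was -0.72 (-1.10 to -0.34), short of 2-fold; 1.45% of the 9950 genes measured in T-like cells were lower by 2-fold or more. The control cells with most Ccr7 bore on this value: without the 5 top cells of each library it was -0.41 (-0.83 to 0.03), and under stricter gates -0.44 (-1.09 to 0.23). The share of T-like cells with a UMI was 11.3% (8.62 to 14.5) and 7.05% (5.75 to 8.55), and 3.68% and 2.95% at 500 UMIs per cell. The shares in tumour cells were 0.0671% and 0.108%, and those in monocyte/macrophage-like cells 0.0926% and 0.0755%.

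Subsets of the T-like cells differed in this ratio. In those with a CD8 UMI and none of Cd4 or Foxp3 (290 and 848 cells), Ccr7 had 86 UMIs (96.8 CPM) and 82 UMIs (43.1 CPM). The log2 ratio was -1.17 (-1.62 to -0.71), where 1.3% of genes were lower by 2-fold or more. Without the 5 top cells of each library it was -0.83 (-1.37 to -0.27), and under stricter gates -0.99 (-1.77 to -0.21), both short of 2-fold. Another subset was the T-like cells with 3 or more of 7 naive or memory genes, a panel without Ccr7 (81 and 262 cells). There Ccr7 had 14 UMIs (73.2 CPM) and 58 UMIs (142 CPM), a log2 ratio of 0.96 (0.10 to 1.92). In the remaining T-like cells (396 and 1099) it had 95 UMIs (85.3 CPM) and 78 UMIs (34.3 CPM), a log2 ratio of -1.32 (-1.77 to -0.87) where 1.75% of genes were lower by as much. The intervals of these last ratios lie on opposite sides of 0. In the control library Ccr7 was near the same level in both subsets, whereas in the other library it was higher in the cells with naive or memory genes. Beside this stands a limit of the panel: not all of its genes are restricted to leukocytes, and Klf2 was also found in tumour cells (120 and 133 CPM). The split also depends on depth, because it asks for genes to be detected, so its subsets need not hold like cells in both libraries. Median depths were 1869 and 1139.5 UMIs with 3 or more of these genes, and 2195 and 1707 UMIs in the remaining cells. The part of depth in the opposite signs was not tested.

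T-like cells with a Ccr7 UMI were compared with those without in each library. They numbered 54 and 423 on the control diet, against 96 and 1265 on the other. Among the naive and memory genes, Tcf7 was higher in Ccr7-bearing cells of both libraries (log2 0.85, 0.01 to 1.62, in the control and 1.38, 0.82 to 1.91, in the other), and so were Il7r (0.62, 0.18 to 1.05, and 1.01, 0.72 to 1.30) and Satb1 (0.63, 0.28 to 0.96, and 0.66, 0.37 to 0.94). S1pr1 differed by 0.02 (-2.38 to 1.78) and 1.57 (0.48 to 2.54), and Klf2 by -0.36 (-0.98 to 0.21) and 0.94 (0.51 to 1.34). Lef1 had opposite signs, at -1.13 (-2.29 to -0.16) and 1.22 (0.84 to 1.57), and rested on 9 control UMIs in the Ccr7-bearing cells. Xcl1, a chemokine gene for type 1 dendritic cells, was higher in both libraries, by 2.14 (1.69 to 2.59) and 1.37 (0.50 to 2.16). The effector genes Ccl5 (-1.85 and -2.90) and Gzmb (-1.15 and -1.68) were lower in both. Genes of activated or exhausted T cells were not all lower: Tox (0.07 and 0.02), Tnfrsf9 (0.07 and 0.04) and Lag3 (0.36 and 0.21) had intervals that include no difference. Pdcd1, which encodes PD-1, differed by -0.001 (-0.39 to 0.37) and -0.47 (-0.86 to -0.11), and Cd44 by 0.37 (-0.15 to 0.86) and 0.71 (0.20 to 1.19). The proliferation gene Mki67 differed by -0.09 (-0.56 to 0.35) and -1.46 (-2.13 to -0.87). The difference between the libraries was not tested for these genes. Median depths with and without Ccr7 were 2512.5 and 2072 UMIs for the control diet, against 1638.5 and 1567 for the other.

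**Figure D4:**
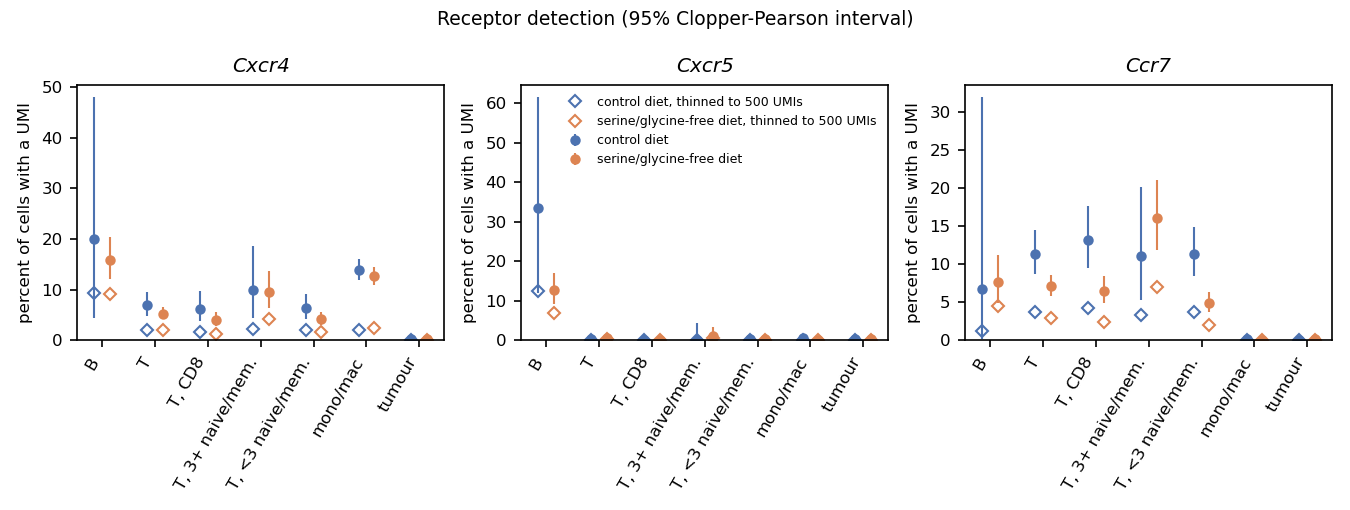
Filled points give the percent of cells with a UMI of Cxcr4, Cxcr5 or Ccr7 (y axis) by class (x axis) with 95% Clopper-Pearson intervals, blue for the control diet and orange for the serine/glycine-free diet; open diamonds give the share expected at 500 UMIs per cell. Ccr7 was found in 11.3% and 7.05% of T-like cells, and in 11.1% and 16.0% of those with 3 or more naive or memory genes.

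Antigen-presenting cells also held Ccr7. Mature migratory dendritic-like cells, 4 in each library, all carried it, with 22 and 15 UMIs (1558 CPM, 977 to 2359, and 1504 CPM, 842 to 2480). This was the highest Ccr7 level of any gated class in both libraries, and 13 of the 22 and 7 of the 15 UMIs lay in 1 cell. Type 1 dendritic-like cells had 6 UMIs in 4 of 80 cells and 15 UMIs in 2 of 89 cells, of which 11 lay in 1 cell. Their log2 ratio of 1.43 (-0.02 to 3.08) became 0.11 (-2.31 to 2.53) without the top cell of each library, and 2.69% of genes in this class were higher by 2-fold or more. B-like cells had 1 UMI in 15 cells and 29 UMIs in 24 of 315 cells (40.5 CPM, 1.02 to 225, and 88.7 CPM, 59.4 to 127), a log2 ratio of 1.13 (-1.46 to 6.48) in a class where 13.8% of genes were higher by 2-fold or more. In B-like cells of the serine/glycine-free library, 7 cells had UMIs of both Cxcr5 and Ccr7, 33 of Cxcr5 alone and 17 of Ccr7 alone. Leukocytes meeting no gate had 9 Ccr7 UMIs in 2 of 487 control cells and 33 in 14 of 704 cells of the other library. Their levels were 6.122 and 24.47 CPM, a log2 ratio of 1.999 (0.904 to 3.248). They held 4.972% and 11.19% of each library's Ccr7 UMIs. Of the 9 control UMIs, 7 lay in 1 cell, and so did 9 of the 33. The ratio without these top cells was not tested. Fibroblast-like and endothelial-like cells had 0 Ccr7 UMIs and 0 Cxcr5 UMIs in both libraries.

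**Figure D5:**
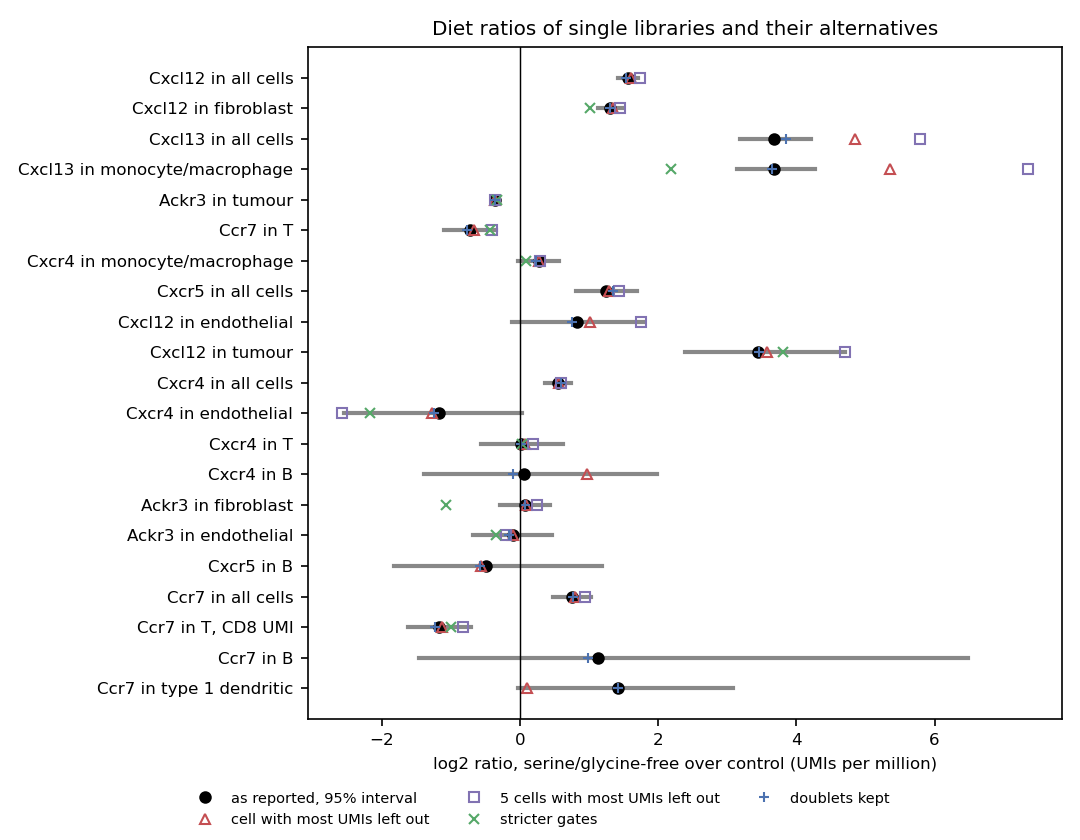
Black points with grey bars give the log2 ratio of the serine/glycine-free over the control library (x axis) and its 95% interval for each gene and class (y axis); coloured marks give the ratio with the top cell or the top 5 cells left out, under stricter gates, or with doublets kept. Cxcl13 in monocyte/macrophage-like cells ranges from 2.19 to 7.35 over these settings, while Ackr3 in tumour cells stays between -0.36 and -0.33.

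Of 27 other genes of lymphocyte entry and lymphoid organisation, 22 had at least 20 UMIs over both libraries; 14 of these were higher and 8 lower in the serine/glycine-free library, 3 of them higher by 2-fold or more. Over all 18077 genes, 3.37% were higher by as much. The median log2 ratio of the 22 genes was 0.16, against 0.05 over all 18077. The 3 were Glycam1 (1 and 51 UMIs in the cells used), Tnfrsf13c, the BAFF receptor gene of B cells (37 and 142 UMIs, log2 1.99), and Ltb, a lymphotoxin gene (1711 and 3440 UMIs, log2 1.05). Of the 51 Glycam1 UMIs, 43 lay in tumour cells, and the part of RNA carried over from the barcode with 1784 UMIs was not tested. Ltb was close in T-like cells (739 and 755 CPM, log2 0.03, -0.08 to 0.14), and Tnfrsf13c in B-like cells had 10 and 88 UMIs (405 and 269 CPM). In B-like cells Ltb was lower, with 49 and 312 UMIs (1983 and 954.5 CPM, log2 -1.055, -1.49 to -0.59), the control value resting on 15 cells. Median-of-ratios scaling raised B-like ratios by 0.30 on the log2 scale, which leaves this one short of 2-fold. Vcam1, an adhesion molecule for lymphocytes, was higher in monocyte/macrophage-like cells (662 and 1311 UMIs, log2 1.19, 1.05 to 1.32), in fibroblast-like cells (43 and 92 UMIs, log2 1.31, 0.77 to 1.87) and in endothelial-like cells (3 and 33 UMIs, log2 3.81, 2.14 to 6.16). In endothelial-like cells 6.42% of genes were higher by 2-fold or more. Most Vcam1 UMIs lay in tumour cells, with 24675 and 25075 UMIs (168.5 and 188.2 CPM, log2 0.16, 0.13 to 0.19). Over all cells its log2 ratio was 0.20 (0.17 to 0.22). The part of carried-over tumour RNA in the Vcam1 values of the other classes was not tested. Ch25h, Gpr183 and the lymphotoxin receptor gene Ltbr, measured in monocyte/macrophage-like cells, had log2 ratios of 0.00 (-0.17 to 0.17), -0.31 (-0.48 to -0.14) and -0.04 (-0.31 to 0.22).

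The genes whose levels followed the members most closely were ranked by Pearson's r of log2(CPM + 1) over 10 classes of both libraries (20 points, which share libraries and differ widely in depth). For Cxcl12 they were Mpdz (0.96), Bicc1 (0.96) and Tfpi2 (0.96), and for Ackr3 Tgfb1i1 (0.95), Hes1 (0.93) and Fbln5 (0.93). For Cxcl13 they were Sectm1a (0.90), St6galnac5 (0.88) and Cacnb1 (0.80), and for Cxcr4 Fry (0.91), Cyth1 (0.90) and Slc16a6 (0.90). The Cxcl13 ranking leans on single cells. Its highest point, fibroblast-like cells of the serine/glycine-free library (96.6 CPM), had 56 of 58 UMIs in 1 cell. In control monocyte/macrophage-like cells 22 of 30 lay in 1 cell. Cxcr5 was most like Lmbrd1 (0.90), Pou2af1 (0.86), a B-cell coactivator gene, and Gm31243 (0.84), and Ccr7 most like Ildr1 (0.92), Xlr4b (0.85) and Faah (0.82). The ranking for Ccl21a rests on 1 cell and is not given.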

How the data were processed

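Droplet 3' RNA libraries of mouse tumour cells were analysed from the deposited counts of UMIs per gene and barcode, which the authors made with Cell Ranger. Its version is 7.0.1 per the file headers and 2.2.2, with the mm10 build, per the submitters' processing notes. The protocol text in the labels speaks of human cardiac tissue, unlike the other fields, so the dissociation is uncertain. Barcodes held 173785388 and 173592046 UMIs in all (control, serine/glycine-free). Barcodes were kept from 500 UMIs and 300 genes upward if mitochondrial UMIs made up 20% or less (14159 and 20312 cells), and Scrublet in scanpy 1.11.5 removed 571 (4.03%) and 1206 (5.94%) as doublets.

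Gates asked for UMIs of several panel genes: 6 of 10 for fibroblast, 5 of 11 for endothelial, 5 of 10 for monocyte/macrophage, 3 of 9 for T, 3 of 10 for B and 2 of 3 for tumour. Cells in several gates were set aside as mixed (197 and 602), and 487 and 704 leukocytes and 422 and 1247 other cells met no gate. No panel holds a member gene. The members, panels and gene lists were chosen with earlier results of these data known, and the gate limits after the cells were seen. UMIs were summed per class and given as CPM of the class total, with exact Poisson intervals; ratios have exact conditional binomial intervals and shares Clopper-Pearson ones (scipy 1.17.1). Shares at 500 UMIs are the exact expectation of drawing that many UMIs from each cell, which left out no cell. The named genes are the members in each class where they had UMIs, the list of 27, and the 3 genes most like each member with at least 100 UMIs. Genes that describe Cxcl13-bearing and Ccr7-bearing cells and the Ccl21a barcodes were chosen after values were seen. The scripts were tested on simulated counts with known ratios. Promoter windows, from RefSeq (GRCm38.p6), were matched by symbol for 5 of 7 members; gene positions and transcripts are those of GENCODE M21. The values of 1 gene of the list of 27 are not reported here.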

Additional observations from a re-analysis of the deposited data

Results flagged for a closer look

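Ccl21a had 93 UMIs in the barcodes that Scrublet called doublets in the serine/glycine-free library and 0 in those of the control library, in data that the ratios leave out. Of the 93, 91 lay in the barcode with 1784 Glycam1 UMIs. That barcode had 8522 UMIs, 3 of them from the pan-leukocyte gene Ptprc, and 0 UMIs of the tumour genes Hmga2 and Rhox5. Whether it held 1 cell or 2 was not tested. Cxcl13 had 1 and 90 UMIs in doublet-called barcodes.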

How the results depend on the processing

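The 26 results tried gave 142 values under alternative settings, of which 129 stayed within the 95% interval of the reported value, 13 lay outside it and 0 turned the direction of a ratio of 2-fold or more. Without the cell with most UMIs in each library, Cxcl13 had a log2 ratio of 4.85 over all cells and 5.35 in monocyte/macrophage-like cells, and Ccl21a had 30 UMIs. Without the 5 top cells, these were 5.79, 7.35 and 6, and Cxcl12 over all cells had 1.74. Stricter gates gave 1.02 for Cxcl12 in fibroblast-like cells and 2.19 for Cxcl13 in monocyte/macrophage-like cells, and keeping doublets gave 224 Ccl21a UMIs. Stricter gates left 2 and 6 fibroblast-like cells, in which Ackr3 had 1 UMI per library. The added fibroblast gate without regard to tumour markers was chosen after seeing the data. For 10 settings of ratios in B-like, endothelial-like and type 1 dendritic-like cells no value could be had, because the control library had 0 UMIs left. Median-of-ratios scaling raised B-like ratios by 0.30 on the log2 scale, which left the 3 receptor ratios in B-like cells within their intervals. No paired analysis was possible because each diet has 1 library. The 15 control B-like cells limit every receptor ratio in that class.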
